A study of Homo sapiens with 8 samples.

Results

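The replication-dependent histone genes are the genes of the linker histone H1 and of the core histones H2A, H2B, H3 and H4 that are named by cluster. They were taken as the protein-coding genes H1-1 to H1-6 and those whose symbol is H2AC, H2BC, H3C or H4C followed by a digit, in the GENCODE annotation of GRCh37. This rule gave 65 members of 20175 protein-coding genes, with 6 genes of H1, 16 of H2A, 17 of H2B, 13 of H3 and 13 of H4. ChIP-Seq for FLI1, in which DNA bound by FLI1 is recovered with an antibody and sequenced, was done in OCI-Ly1 and VAL, established lymphoma lines of germinal centre B-cell (GCB) origin. There were 4 FLI1 libraries, 2 for each line and here named by replicate (rep1 and rep2), beside 4 samples of input DNA, which were not analysed here. The labels name no treatment or modification of the cells, and nothing says whether the 2 replicates of a line came from separate cultures.

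These genes are packed in clusters, most have no intron, and they are transcribed in S phase, when new DNA has to be wrapped in nucleosomes. Each core histone has many near-identical gene copies, and their mRNAs end in a stem-loop instead of a poly(A) tail. FLI1 is an ETS transcription factor, a family that recognises the core GGAA, and it is prominent in blood and endothelial cells.

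A peak is a stretch where reads piled up, and its summit is the highest point. The peak lists give for each summit a fold enrichment over the local background and a -log10 q, the adjusted significance on a log scale. A member was called bound in a library when the best peak centred within 3 kb of any of its transcription start sites (TSS) had a -log10 q of at least 3. Of the listed peaks, 5354 passed this limit in OCI-Ly1 rep2, 973 in VAL rep1 and 6474 in VAL rep2. The weakest passing peaks had 6, 8 and 6 reads at the summit, and all read numbers here were inferred from fold and -log10 p. The read totals are not part of the lists, so a member without a passing peak was below detection at this depth and was not shown to be free of FLI1. OCI-Ly1 rep1 has a list of only 37 intervals, 33 of them over 1 Mb, with 1 that passed, on a chromosome with no member, and it was not used.

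To show which DNA lies under the peaks, the matches of CCGGAAA or CCGGAAG nearest to a summit are given for the sites found in both lines. Both are long forms of the ETS core, sought on both strands within 50 bp of a summit. The sequences are of GRCh37, 5′ to 3′ on the strand of the match, with the match in capitals.
H3C14, chr1:149814524-149814553, minus strand: ctcggggtctaCCGGAAAcgactgtgtact
H2AC19, chr1:149822393-149822422, plus strand: ctcggggtctaCCGGAAAcgactgtgtact
H4C3, chr6:26104303-26104332, minus strand: catagataagaCCGGAAAtgcgcttgacgc
H2BC5, chr6:26158692-26158721, minus strand: ggccagctcccCCGGAAGcagcaggcgcac
H1-3, chr6:26234007-26234036, plus strand: aagatcgtgggCCGGAAGcaccttgggcat
H2BC13, chr6:27775361-27775390, plus strand: ggccagctcccCCGGAAGcagcaggcgcac
The stretches at H3C14 and H2AC19 are the same 30 bases, and so are those at H2BC5 and H2BC13. The strongest site, upstream of H4C13, is shown for the opposite reason: it has neither form within 50 bp of a summit, and its only GGAA, in capitals, lies 5 bp from the highest summit.
H4C13, chr6:27841351-27841380, plus strand: tcggacctgattgGGAActctccacaccag
The GGAA overlaps ATTGG, which is CCAAT on the other strand, the recognition sequence of the factor NF-Y.

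In OCI-Ly1 rep2, 23 of the 65 members were bound (35.4%, Wilson 95% interval 24.9 to 47.5), against 19.0% of all protein-coding genes. In VAL rep2, 32 were bound (49.2%, interval 37.5 to 61.1), against 20.8%. In VAL rep1, 2 were bound (3.08%, interval 0.848 to 10.5), which is near the 3.14% of all protein-coding genes. In both lines, counting either VAL library, 20 members were bound (30.8%), against 12.6% of all genes, and in either line 35 were bound (53.8%), against 27.4%. Only H4C13 and H3C11 were bound in all 3 libraries, 3.08% of the members against 2.73% of all genes, and they share that peak. The intervals cover counting error only, and neighbours that share a peak are not independent, so no test was made on these counts. The count for both lines rests on VAL rep2, and without it 2 members were left. With the top 973 peaks of every list, 3, 2 and 3 members were bound in OCI-Ly1 rep2, VAL rep1 and VAL rep2. These are 4.62%, 3.08% and 4.62% of the members, against 4.93%, 3.14% and 4.44% of all protein-coding genes. At this list size the members' shares were thus close to those of all genes. With a -log10 q of at least 5, 14 members (21.5%) were bound in OCI-Ly1 rep2 and as many in VAL rep2, against 11.9% and 12.2%. With a peak counted only for the gene whose TSS is closest, which removes most sharing between neighbours, 21.5%, 1.54% and 27.7% of the members were bound, against 13.9%, 2.22% and 15.5%.

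The histone genes are short and offer few TSS, and 50 of them have exactly 1. Their median search window was 6001 bp, against 12072 bp over all protein-coding genes. Among genes with 1 TSS, a set chosen after the values were seen, the shares lay further apart. Protein-coding genes with 1 TSS were bound less often than all protein-coding genes (19.0%, 3.14% and 20.8% in OCI-Ly1 rep2, VAL rep1 and VAL rep2). Whether they differ from the members in more than the window was not tested. In OCI-Ly1 rep2, 19 of the 50 members (38.0%) were bound against 8.30% of 3264 protein-coding genes. In VAL rep2 it was 27 (54.0%) against 9.28%, and in VAL rep1 it was 2 (4.0%) against 1.32%.

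**Figure D1:**
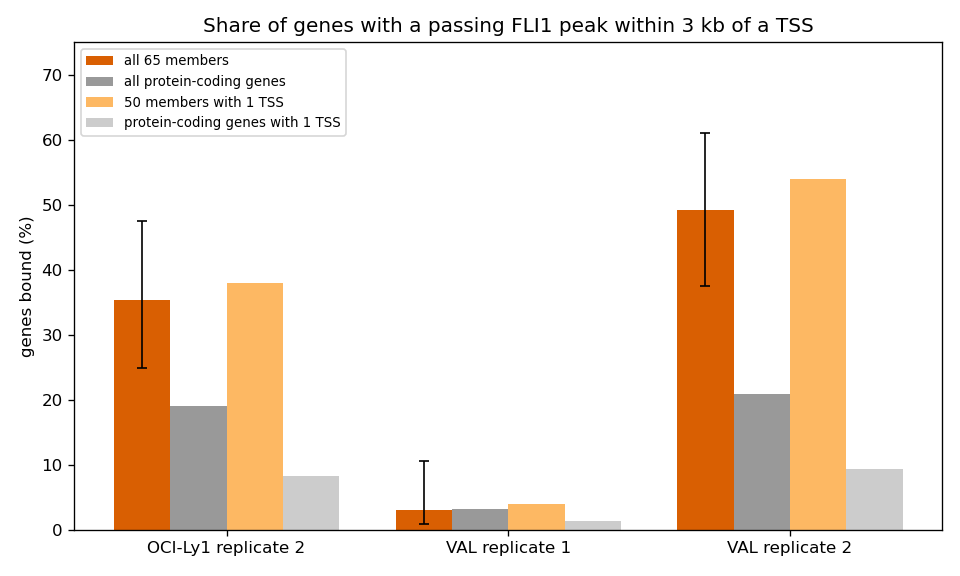
Share of genes (percent, y axis) that were bound, that is with a passing peak near a TSS, in each library, for all 65 members with Wilson 95% intervals as error bars, all protein-coding genes, and the genes of either set with 1 TSS. In OCI-Ly1 rep2 and VAL rep2 the members stand at 35.4% and 49.2% and all protein-coding genes at 19.0% and 20.8%, and in VAL rep1 at 3.08% and 3.14%.

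The best -log10 q of a member, bound or not, had a median of 1.66 in OCI-Ly1 rep2, 0.78 in VAL rep1 and 2.84 in VAL rep2. Over all protein-coding genes with a listed peak the medians were 1.22, 0.29 and 1.67. A listed peak was found at 65, 51 and 65 members. Several members lay close to the limit. In OCI-Ly1 rep2 the members just inside were H2AC13, H2BC13 and H3C10, which share a peak of 3.38, and just outside were H4C9 and H1-2 at 2.59 and H2BC12 at 2.50. In VAL rep2, H2AC20, H2AC21 and H2BC21 were just inside with a shared 3.27, and H4C15, H2AC11 and H2BC11 just outside at 2.84. In VAL rep1 no member lay between H3C14 at 2.83, with H2AC19 and H3C15 at 2.81, and the shared 25.59 of H3C11 and H4C13.

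Because neighbours share peaks, the bound members came from fewer peaks. There were 16 separate passing peaks in OCI-Ly1 rep2, 1 in VAL rep1 and 20 in VAL rep2. Most were small, with medians of 8 reads at the summit and folds of 6.38 and 6.31 in OCI-Ly1 rep2 and VAL rep2. Peaks that overlapped between libraries were merged into 24 sites, of which 11 were found in both lines, 1 of them in all 3 libraries, 4 in OCI-Ly1 rep2 only and 9 in VAL rep2 only. Merging asked only for overlap. At the sites of both lines the best passing summits of the libraries lay 3 bp (H1-3) to 770 bp (H2AC21) apart. They lay 237 bp apart at H4C11 and 181 bp at H4C12, so a site can hold separate summits of the lines. At 21 sites the closest TSS of any gene was that of a member. The exceptions were sites nearer to BOLA1 and to 2 genes without a symbol, ENSG00000290791 and ENSG00000291338.

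The site upstream of H4C13, a histone H4 gene (ENSG00000275126.2_7, chr6:27840926-27841312, minus strand), was the strongest of the 24. Its -log10 q was 34.75 in OCI-Ly1 rep2, 25.59 in VAL rep1 and 71.92 in VAL rep2. The folds were 19.85, 13.17 and 33.14, from 26, 32 and 47 reads. The 3 summits fell within 16 bp of each other, and the highest lay 60 bp upstream of the H4C13 TSS. It was counted for H3C11 as well, a histone H3 gene whose TSS is within 3 kb. H3C11 also had a peak over its own body, which passed in OCI-Ly1 rep2 (4.94, 7 reads), was listed at 2.23 in VAL rep2 and was not listed in VAL rep1.

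The other 10 sites found in both lines passed in OCI-Ly1 rep2 and VAL rep2 and stayed under the limit in VAL rep1. H4C3, another H4 gene, had a -log10 q of 7.59 in OCI-Ly1 rep2, 1.3 in VAL rep1 and 19.11 in VAL rep2. H1-3, a linker histone gene, had 13.55, 0.78 and 6.73. Its summit lay 1200 bp downstream of the TSS, beyond the end of the gene (chr6:26234440-26235215), and 3 bp from the printed CCGGAAG. The site in H2BC5, an H2B gene, had 7.15, 0.50 and 11.01 and is shared with the linker histone gene H1-4, which had a second peak near its own start, at 9.66 in VAL rep2 and 2.87 in OCI-Ly1 rep2.

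The site of H3C12, an H3 gene, which also serves H2AC17 and H2BC17, had 5.19, 1.22 and 10.49. The H4 genes H4C11 and H4C12 had 4.25, 1.02 and 6.07, and 5.19, 0.18 and 4.42. Weaker sites were shared by H2BC13, H2AC13 and H3C10, with 3.38 in OCI-Ly1 rep2 and 3.87 in VAL rep2, and by H2AC20, H2AC21 and H2BC21, with 3.79, 1.72 and 3.27. On chromosome 1, in OCI-Ly1 rep2 and VAL rep2, the site at H3C14 had 6.84 and 5.61. That at H2AC19 with H3C15 had 7.27 and 7.19. The best VAL rep1 peaks in these merged spans, at 2.83 and 2.81, had their summits at 149812118 and 149825092. The highest summits of OCI-Ly1 rep2 lay elsewhere, at 149814546 and 149822401. In the span at H3C14, OCI-Ly1 rep2 had a second passing peak (3.90) with its summit at 149812144, close to that of VAL rep1. The -log10 q values rank the peaks of a list and are not amounts to compare between libraries.

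**Figure D2:**
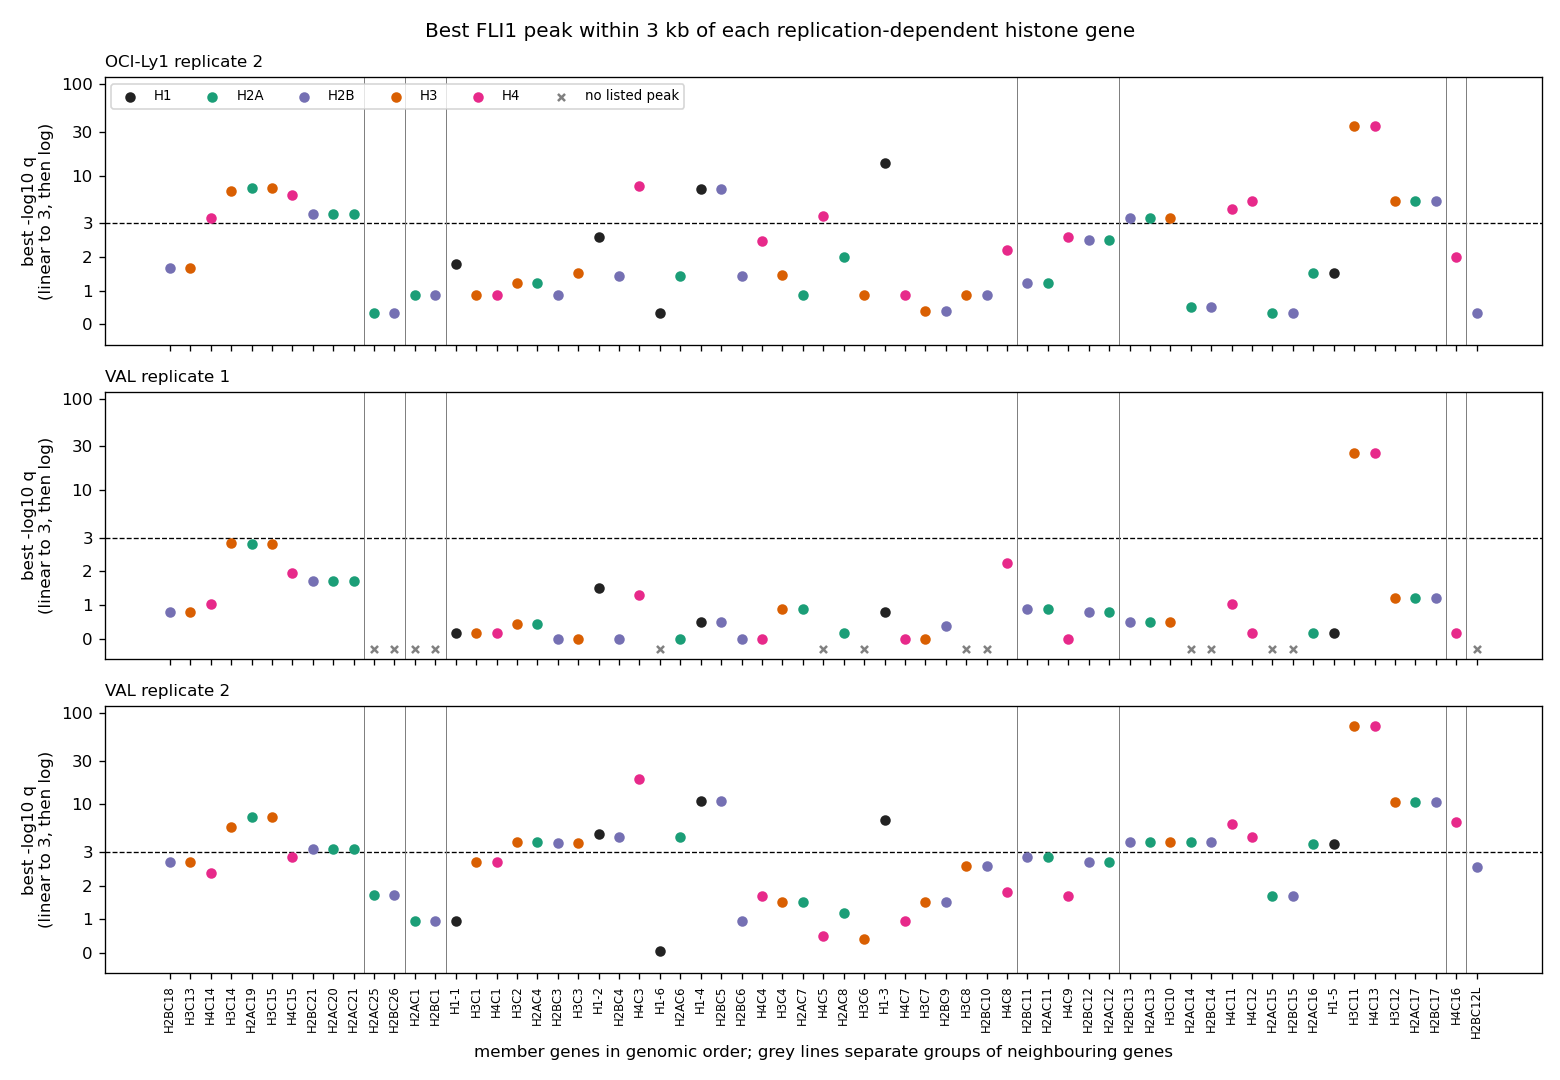
Best -log10 q (y axis, linear to 3 and logarithmic above) within 3 kb of each of the 65 members, in genomic order along the x axis, in 1 panel per library. Points are coloured by histone class, crosses mark members with no listed peak, the dashed line is the limit of 3 and grey lines separate groups of neighbours. H3C11 and H4C13 share the highest point of every panel, at 34.75, 25.59 and 71.92.

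The members bound in OCI-Ly1 rep2 only were H4C14, H4C15 and H4C5, all H4 genes. H4C14 and H4C15 lie in identical copies of a stretch of chromosome 1, described below, and are not independent. Their -log10 q was 3.40, 6.04 and 3.62 there, and 2.37, 2.84 and 0.51 in VAL rep2. The 12 members bound in VAL rep2 only were H3C2, H2AC4, H2BC3, H3C3, H1-2, H2BC4, H2AC6, H2AC14, H2BC14, H2AC16, H1-5 and H4C16. Of these, H4C16 had the highest value, 6.37, against 2.0 in OCI-Ly1 rep2. The other 11 had 3.64 to 4.72 in VAL rep2. Passing in 1 library and not in another does not show that the libraries differ, and the difference was not tested.

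Members of every histone class were bound. Of the linker histone H1 genes, which close the nucleosome, 2 of 6 were bound in OCI-Ly1 rep2, 0 in VAL rep1 and 4 in VAL rep2. H1-1 and H1-6, the testis form, were bound in no library. Of the 16 H2A genes 5, 0 and 9 were bound, and of the 17 H2B genes 4, 0 and 7. Of the 13 H3 genes 5, 1 and 7 were bound, and of the 13 H4 genes 7, 1 and 5. H4 had the highest median of the best -log10 q in OCI-Ly1 rep2 (3.40) and H1 in VAL rep2 (4.18). The H1 count and median in VAL rep2 include H1-5, whose best peak lies in H2AC16, 2208 bp downstream of the H1-5 TSS. By class, 23.5% (H2B) to 53.8% (H4) of the genes were bound in OCI-Ly1 rep2, beside 19.0% of all protein-coding genes, and 38.5% (H4) to 66.7% (H1) in VAL rep2, beside 20.8%. With 6 to 17 genes in a class that share peaks, these shares are loose, and that of H2B in OCI-Ly1 rep2 lay near the share of all genes. In both lines 2 genes of H1, 5 of H2A, 4 of H2B, 5 of H3 and 4 of H4 were bound.

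Bound members were counted along the chromosomes. Over all protein-coding genes, 19.0%, 3.14% and 20.8% were bound in OCI-Ly1 rep2, VAL rep1 and VAL rep2. Members of a group share peaks, and differences between groups were not tested. With a gap of 1 Mb the 51 members of chromosome 6 form 1 cluster, of which 15, 2 and 25 were bound in OCI-Ly1 rep2, VAL rep1 and VAL rep2. A gap of 200 kb, chosen after the values were seen, splits it into 4 groups. The group from 27775257 to 27861669, with 16 members, had 10, 2 and 14 bound. The group from 26017260 to 26285866, with 28 members, had 5, 0 and 11. The 5 members from 27093676 to 27115341 (H2BC11, H2AC11, H4C9, H2BC12 and H2AC12) and the testis pair H2AC1 and H2BC1 had none. On chromosome 1, the 10 members from 149754245 to 149859515 had 8, 0 and 6 bound, and H2AC25 and H2BC26 none. H4C16 on chromosome 12 was bound in VAL rep2 only, and H2BC12L on chromosome 21 in no library.

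Near-identical copies limit where reads can be placed. Of the 32-base words within 500 bp of the 5′ end of a member's gene, a median of 91.8% occur once in the genome. By this measure 30 of the 65 members fell below 90%. The chromosome 1 group had a median of 9.28%. There, the surroundings of H3C14 and H2AC19 are inverted copies that are identical over 15700 bp, so their reads cannot be told apart. The copies run on over H4C14 and H4C15, so the sites in them were counted once for each copy. The sites at H4C14 and H4C15 also lie in sequence with no unique word within 100 bp of the summit, as do those at H4C11 and H4C12. The study's methods keep only reads that map to a single position, while peaks passed at these 6 sites, 4 of them found in both lines, so the read filter behind the lists is not known and the values at these sites are uncertain. Over the 35 members with at least 90% unique words, 10 were bound in OCI-Ly1 rep2, 2 in VAL rep1, 17 in VAL rep2 and 9 in both lines. These are 28.6%, 5.71%, 48.6% and 25.7%, beside 19.0%, 3.14%, 20.8% and 12.6% of all protein-coding genes, which were not filtered in this way. The sites at H4C13, H4C3, H1-3 and H3C12 lie in sequence of which 100% of these words are unique.

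Most summits lay inside the genes and not upstream of them. At 17 of the 24 sites (70.8%) the highest summit fell in coding sequence, at 4 upstream, at 2 downstream and at 1 in an intron. In OCI-Ly1 rep2, 9 of the 16 passing member peaks (56.2%) had their summit in coding sequence, against 6.63% of all passing promoter peaks. In VAL rep2 it was 13 of 20 (65.0%), against 6.80%, and the peak of VAL rep1 was not in coding sequence. Member peaks that were listed and did not pass had it in 28 of 138 cases (20.3%) in OCI-Ly1 rep2, 26 of 47 (55.3%) in VAL rep1 and 27 of 121 (22.3%) in VAL rep2. Histone genes are short and have little else than coding sequence in their transcripts, and what part this has in the share was not tested. Among the 11 divergent pairs, whose starts lie 170 to 319 bp apart, 4 had a bound member in OCI-Ly1 rep2 and 6 in VAL rep2. H2BC17 enters both with its neighbour H2AC17 (240 bp) and with an outlying start of H3C12 (319 bp), bound through the same peak. No share over other gene pairs was counted. No passing summit lay between the starts of a pair.

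**Figure D3:**
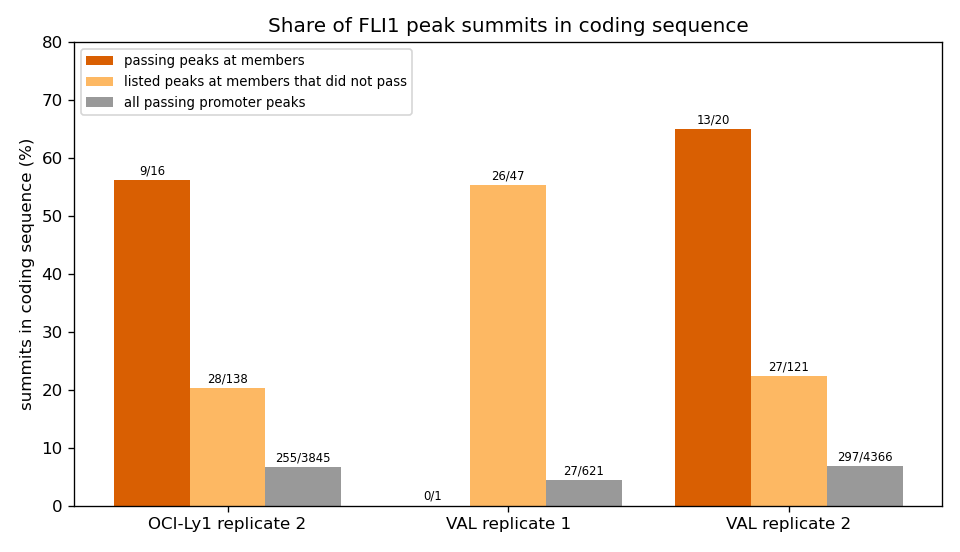
Share of peak summits in coding sequence (percent, y axis) in each library, for passing peaks at members, listed peaks at members that did not pass, and all passing promoter peaks, with counts above the bars. Passing member peaks stand at 56.2% and 65.0% in OCI-Ly1 rep2 and VAL rep2, and all passing promoter peaks at 6.63% and 6.80%.

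The long ETS forms stood at some of these summits. In OCI-Ly1 rep2, 7 of 16 member peaks had CCGGAAA or CCGGAAG within 50 bp of the summit (43.8%, interval 23.1 to 66.8), against 44.7% of all passing promoter peaks. In VAL rep2 it was 7 of 20 (35.0%, interval 18.1 to 56.7), against 37.7%, and in VAL rep1 it was 0 of 1, against 53.5%. Windows of the same length 250 bp to either side held a match in 1 of 32, 0 of 40 and 0 of 2 cases. The members' shares were thus close to those of promoter peaks at large. By site, 9 of 24 had a match, 6 of the 11 found in both lines and 3 of the 13 found in 1 line.

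Of the 9 matches, 5 lay in coding sequence, at H3C3, H4C3, H2BC5, H2BC13 and H3C11. In all, 10 members hold such a match in their coding sequence, and 5 of these had a passing summit within 50 bp of it. The printed match at H4C3 is centred 157 bp downstream of the nearest TSS and those at H2BC5 and H2BC13 at 333 and 332 bp. At H2BC5 it lies 357 bp from the 5′ end of the gene. Within 500 bp of the 5′ end of the gene a match was found in 20 of 65 members (30.8%), against 27.9% of protein-coding genes. Other starts of genes with several TSS were not searched for this count. Such a match was found in 7 of the 20 members bound in both lines and in 9 of the 30 bound in no library. A match is a description of the letters and not evidence of a site.

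**Figure D4:**
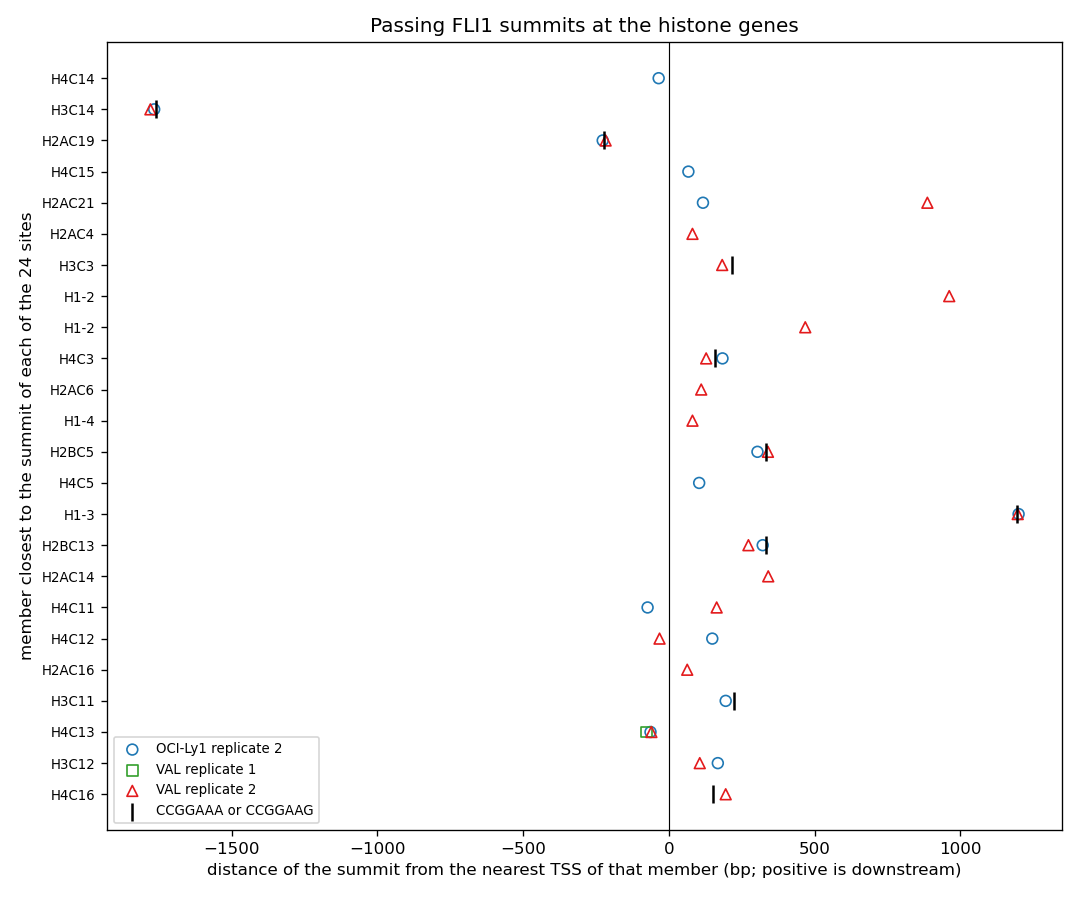
Distance (bp, x axis, positive downstream) of the best passing summit of each library from the nearest TSS of the closest member. The 24 sites are in genomic order (y axis), with 1 symbol per library. Black ticks mark CCGGAAA or CCGGAAG within 50 bp of a passing summit. Most symbols lie to the right of 0, within the genes, and only the H4C13 site has summits of all 3 libraries, which lie within 16 bp.

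The H4 genes were compared over the stretch under the H4C13 site. It was taken from the strongest site after its values were seen, and 2 ways of scoring the match were tried, so the comparison describes the letters and no count of bound genes was taken from it. The best ungapped match over 18 bases, from 150 bp upstream of the 5′ end of the gene to 50 bp downstream, is shown on the strand of the gene for H4C13, for H4C3 and H4C11, which were bound in both lines, and for H4C4, which was bound in none. The capitals mark the bases aligned with TTCC, which is GGAA on the other strand.
H4C13, chr6:27841350-27841379: tggtgtggagagTTCCcaatcaggtccgat
H4C3, chr6:26104092-26104121: caactcatgttgTTTTcaatcaggtccgcc
H4C11, chr6:27791801-27791830: acttctttcaggTTCTcagttcggtccgcc
H4C4, chr6:26189377-26189406: cttctcatgaggTTTTcaaacaggtccgtc
TTCC stood there in 2 of the 13 H4 genes, H4C13 and H4C9, and TTTT in 6. In H4C1 and H4C8, which were bound in no library, TTCC stood elsewhere in the best-matching stretch, so that 4 of the 13 held it. Their matches were poor, with 9 and 10 of 18 bases equal, and may not be the counterpart of the H4C13 stretch. Of the 13 stretches only that of H4C13 holds CCAAT. H4C9, whose best match lies 125 bp upstream with 13 of 18 bases equal, had a -log10 q of 2.59, 0.00 and 1.71, all under the limit. H4C4 also had 13 of 18 equal bases, and its -log10 q was 2.48, 0.00 and 1.71.

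The promoters of these genes hold other known elements. RefSeq's promoter table of GRCh38.p14, from 250 bases before to 50 after the start, matched 59 of the 65 members with 63 entries. CCAAT stood in 54 of them (85.7%), against 34.6% of all 35116 promoters. It stood in every H1, H2A, H2B and H3 entry but in only 2 of 11 H4 entries (18.2%). TATAAA stood in 42 entries (66.7%), against 11.5%. ATTTGCAT, the octamer bound by POU2F1 and related factors, stood in 25 (39.7%), against 1.77%, of which 11 were H2A and 13 H2B entries. CCGGAAA or CCGGAAG stood in 8 (12.7%), against 13.4%, of which 4 were H4 entries. All were sought on both strands.

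Related genes were counted in the same way. Of 23 replication-independent histone genes, which are made throughout the cell cycle or in special tissues, 1 was bound in OCI-Ly1 rep2, 0 in VAL rep1 and 3 in VAL rep2, and none in both lines. These are 4.35%, 0% and 13%, beside 19.0%, 3.14% and 20.8% of all protein-coding genes. The difference from the members was not tested. Of 24 annotated genes of histone gene transcription and pre-mRNA processing, 7, 0 and 10 were bound (29.2%, 0% and 41.7%), 5 of them in both lines (20.8%, beside 12.6% of all genes). NPAT, the coactivator that drives histone transcription in S phase, had a -log10 q of 9.54 in OCI-Ly1 rep2, 1.44 in VAL rep1 and 11.01 in VAL rep2. SLBP, which binds the stem-loop of histone mRNA, had 0.87, 0.00 and 2.37 and was not bound. Of 21 histone chaperone genes, 6, 3 and 9 were bound (28.6%, 14.3% and 42.9%), 5 of them in both lines (23.8%). CHAF1A, a subunit of the assembly factor CAF-1, had 14.49, 6.44 and 8.38, and IPO4, an importer of histones, had 15.70, 4.09 and 19.14, and these 2 were bound in all 3 libraries.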

How the data were processed

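FLI1 ChIP-Seq was performed in OCI-Ly1 and VAL. Per the paper's methods, the authors mapped reads to GRCh37 with bowtie2, kept reads with 1 position and removed duplicates, and named HOMER for peaks. The submitters' processing notes name BWA, CASAVA 1.4 and hg19. The deposited lists have the 10 columns of MACS2, and their caller and control are not given in the sources used here. The fold, a linear ratio, the -log10 p and the -log10 q are values of the authors' peak caller. The deposited score is 10 times the -log10 p and was not used. Fold and -log10 p together gave the reads at a summit, by a formula assumed for the caller. It recovered 500 of 500 peaks simulated with the same formula, which checks the calculation and not whether the lists follow it.

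TSS and coding sequence were taken from GENCODE release 44 on GRCh37. Groups followed the labels, and no test was made. Named were all members bound in both lines or in 1 library, those next to the limit, the 5 highest of each library, and NPAT, SLBP and related genes bound in all 3 libraries. Members and lists were chosen with earlier results of these data known. The 200 kb groups, genes with 1 TSS, places in coding sequence, unique words at sites, identical copies and the H4 stretch were chosen after seeing the values, as were the other H4 genes named. Alternatives covered the q-value limit, fold, window, TSS, peak position, closest gene, list size, replicates and motif. Python 3.11.15, pandas 2.3.3, scipy 1.17.1, pysam 0.24.0 and samtools 1.23.1 were used.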

Additional observations from a re-analysis of the deposited data

How the results depend on the processing

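Of 84 values recomputed under alternatives, 51 stayed within 1.5 times the value reported. Library values run in the order OCI-Ly1 rep2, VAL rep1, VAL rep2. With a -log10 q of at least 2, VAL rep1 had 6 members bound, and the separate peaks rose to 27, 4 and 35. With a -log10 q of at least 5, 14 members were bound in OCI-Ly1 rep2 and 14 in VAL rep2, 12 in both lines and 16 in either line, from 9 and 10 separate peaks. The share was 21.5% in each of these libraries, against 11.9% and 12.2% of all protein-coding genes. Within 1 kb of a TSS, 1 member was bound in VAL rep1. Counting a peak only for the gene with the closest TSS, 14, 1 and 18 members were bound, 10 in both lines and 22 in either line, which is 21.5%, 1.54% and 27.7% by library against 13.9%, 2.22% and 15.5%. With the top 973 peaks of every list, 3 members were bound in OCI-Ly1 rep2 and 3 in VAL rep2, 2 in both lines and 4 in either line, from 2 and 2 separate peaks, and the shares of all protein-coding genes were then 4.93%, 3.14% and 4.44%. The members' shares were 4.62%, 3.08% and 4.62%.

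Without VAL rep1 or without VAL rep2, members bound in both lines ranged from 2 to 20 and in either line from 23 to 35. VAL rep2 decided these counts, with 2 and 23 when it was left out. With VAL taken as bound only where both replicates were, the counts were also 2 and 23. Over the members with at least 90% unique words, an alternative added after seeing the data, 10 members were bound in OCI-Ly1 rep2, 17 in VAL rep2, 9 in both lines and 18 in either line, out of 35. The shorter GGAA stood within 50 bp of 14, 1 and 15 summits. It stands in most windows of this length. The cause of these changes was not tested, beyond the fewer peaks or genes that a setting leaves.

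No paired analysis was possible because these results come from no test.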
